A study of Mus musculus with 52 samples.

Results

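The replication-dependent histone genes of the mouse were taken as every gene whose symbol starts with Hist1h, Hist2h, Hist3h or Hist4h in the gene tables, the naming rule of the 4 histone gene clusters. This rule found 69 of 22417 genes, the same 69 in both tables: 6 of the linker histone H1, 19 of H2A, 19 of H2B, 12 of H3 and 13 of H4, written below as H1, H2a, H2b, H3 and H4 after their symbols. RefSeq places 55 of them on chromosome 13, 10 on chromosome 3, 3 on chromosome 11 and 1 on chromosome 6. The cells were mouse embryonic fibroblasts, all of the genotype CReP+/-; GADD34+/+ (WT) and grown in DMEM with FBS, so the untreated cells carry the same single functional copy of CReP as the treated ones. They received thapsigargin (Tg), which inhibits the SERCA calcium pump, during 0.5, 1, 2 or 4 h, or to the reducing agent dithiothreitol (DTT) during 30 min with 0, 10 or 20 min of recovery after it, or were left untreated. Ribosome footprints and mRNA were sequenced from an endoplasmic reticulum (ER) fraction and a cytosol fraction of the cells; by their labels the 52 samples form 26 pairs of replicates, 40 in the Tg time course, untreated cells included, and 12 with DTT. For DTT the assay is named in the column headers of the deposited table and not in the sample labels. The 12 DTT samples stand behind footprint and mRNA columns alike, so how many samples lie behind each DTT value is not known.

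Replication-dependent histones package newly made DNA, and their genes are transcribed mainly while DNA is replicated. H2A, H2B, H3 and H4 form the protein core around which DNA is wound, and H1 binds where DNA enters and leaves it. Unlike nearly all other animal mRNAs, most of these mRNAs end in a stem-loop in place of a poly(A) tail; the stem-loop binding protein SLBP takes part in their processing, translation and decay. Tg and DTT both disturb protein folding in the ER and set off the unfolded protein response, in which the kinase PERK phosphorylates the translation factor eIF2 alpha and initiation falls for most mRNAs. CReP and GADD34 are the regulatory subunits that direct a phosphatase to eIF2 alpha. The mRNA libraries were made by ribosomal RNA depletion, without poly(A) selection, so mRNAs without a tail could be read.

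No deposited value gives replicates apart, so no difference below has a replicate error, a test or a p-value, and the depth behind each value is unknown. Footprint and mRNA values are scores on a scale the authors do not state. Whether the scores are divided by gene length is not stated, so levels of different genes are set side by side only as scores. The scores of all genes sum to a nearly fixed total per time over both fractions, so a score is a share of the footprints or mRNA measured at that time; lower translation of all other genes and higher translation of histone genes cannot be told apart in these values. The scale of the ER columns relative to the cytosol columns was set by the authors. A difference is log2(score + 1) of the first group minus that of the second; "rose" and "fell" are used only for differences over 2-fold. Of the 8 fibroblast markers listed, 8 had a footprint score in the untreated ER and 7 in the untreated cytosol, while of 8 markers of other cell types 2 had a score in the ER, summing to 0.392 against 6271 for the fibroblast markers, and none in the cytosol.

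Promoters show how alike and how different the members are in sequence before their values are read. RefSeq promoter sequences (GRCm38.p6) were found for 62 of the 69 genes, as 63 windows since Hist1h2be has 2, and the 200 bases before each start site were searched on both strands for 4 short motifs known from histone promoters. CCAAT, the letters of a common promoter element, was in 52 of the 63 windows (82.5%), against 29.3% of all 32851 promoters: it was in each of the 6 H1, 18 H2a and 17 H2b windows, in 8 of 10 H3 windows and in 3 of 12 H4 windows. TATAAA, the core of the TATA box, was in 26 of the 63 windows (41.3%), against 9.96% of all promoters. ATTTGCAT, the octamer bound by POU factors and known from H2B promoters, was in 7 of 18 H2a and 7 of 17 H2b windows and in no H1, H3 or H4 window, against 1.38% of all promoters. AAACACA, known as the H1 box, was in 5 of 6 H1 windows, 1 of 18 H2a windows and 2 of 17 H2b windows, against 4.80% of all promoters. A match says only that the letters are there. The windows of the most abundant H1, H2a, H2b and H4 gene by untreated footprint score, of the second most abundant H3 gene and of Hist2h3b, an H3 gene of the chromosome 3 cluster that moved least, are given 5' to 3' on the gene's strand, with matches to these 4 motifs in capitals. They are chr13:23554832-23555031 (+) for Hist1h1d, chr13:23750888-23751087 (+) for Hist1h2ab, chr3:96269500-96269699 (+) for Hist2h2bb, chr13:23745522-23745721 (-) for Hist1h3c, chr13:21811546-21811745 (+) for Hist1h4m and chr3:96268454-96268653 (+) for Hist2h3b.
Hist1h1d: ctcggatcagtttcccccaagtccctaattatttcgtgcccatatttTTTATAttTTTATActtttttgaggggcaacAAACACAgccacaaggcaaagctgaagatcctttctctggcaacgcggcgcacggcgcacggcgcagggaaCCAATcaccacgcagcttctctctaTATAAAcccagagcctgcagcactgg
Hist1h2ab: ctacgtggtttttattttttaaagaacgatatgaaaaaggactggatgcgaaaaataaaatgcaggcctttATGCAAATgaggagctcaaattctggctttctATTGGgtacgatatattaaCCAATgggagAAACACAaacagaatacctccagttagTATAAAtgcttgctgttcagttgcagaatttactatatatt
Hist2h2bb: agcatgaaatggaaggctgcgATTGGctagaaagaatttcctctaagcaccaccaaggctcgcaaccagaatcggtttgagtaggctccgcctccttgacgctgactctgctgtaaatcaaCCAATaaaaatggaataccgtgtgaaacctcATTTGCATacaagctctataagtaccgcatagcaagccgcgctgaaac
Hist1h3c: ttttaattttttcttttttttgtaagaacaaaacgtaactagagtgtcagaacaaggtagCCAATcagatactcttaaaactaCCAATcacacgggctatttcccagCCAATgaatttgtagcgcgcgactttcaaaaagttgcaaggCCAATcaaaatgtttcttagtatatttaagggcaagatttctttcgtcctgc
Hist1h4m: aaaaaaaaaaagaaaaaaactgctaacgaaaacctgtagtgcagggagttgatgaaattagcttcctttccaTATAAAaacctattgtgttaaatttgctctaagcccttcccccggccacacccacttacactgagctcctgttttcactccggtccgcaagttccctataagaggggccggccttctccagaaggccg
Hist2h3b: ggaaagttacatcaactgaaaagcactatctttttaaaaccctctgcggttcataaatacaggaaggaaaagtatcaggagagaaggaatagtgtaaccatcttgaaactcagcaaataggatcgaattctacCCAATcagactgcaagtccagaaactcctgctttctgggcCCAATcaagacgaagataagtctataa
The Hist1h2ab window holds the octamer on the other strand (read as ATGCAAAT), a pair of CCAAT matches, an H1 box and a TATAAA, while Hist1h3c holds 4 CCAAT matches and no other motif. Hist1h4m holds a single TATAAA. Both H3 windows shown lack TATAAA, the octamer and the H1 box. TATAAA was in 4 of all 10 H3 windows, among them that of Hist1h3i, the most abundant H3 gene.

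Histone genes took a larger share of all ribosome footprints at every time after Tg than in untreated cells. Over both fractions together they held 2.62% of the summed footprint score in untreated cells, 6.18% at 0.5 h, 9.05% at 1 h, 7.67% at 2 h and 3.56% at 4 h of Tg. Their share of the summed mRNA score moved less, with 0.898% in untreated cells and 0.987%, 1.58%, 1.70% and 0.980% at 0.5, 1, 2 and 4 h. The footprint share was highest at 1 h and the mRNA share at 2 h.

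Footprint scores of single members ranged widely in untreated cells. The median member had 96.4 in the ER and 157 in the cytosol, against medians of 6.38 and 8.53 over all genes with a score. Hist2h2bb was the most abundant by the mean of both fractions, with 630.0 in the ER and 1712 in the cytosol. By contrast, Hist3h2bb-ps, marked as a pseudogene by its symbol, had 0.489 in the ER and 1.99 in the cytosol. From these low scores it had the highest cytosol footprint difference of any member at 0.5 h of Tg (3.41). After 30 min of DTT its cytosol difference to untreated cells was 4.06, also among the highest. Hist1h2bl, picked here after its values were seen, had 0.498 in the ER and 3.74 in the cytosol. Several members of a class had nearly the same scores. Hist2h2aa1 and Hist2h2aa2 differed, relative to one of the pair, by at most 3.42% over the 10 Tg footprint columns, Hist2h3c1 and Hist2h3c2 by 6.31%, Hist1h2bq and Hist1h2br by 9.20%, Hist1h3g and Hist1h3h by 11.5% and Hist1h1c and Hist1h1e by 12%. The next closest pair, Hist1h1a and Hist1h4n, came from different classes and differed by at most 18.3%. Members of a class are known to be alike in coding sequence, no coding sequence was compared here, and whether short reads were shared between members of a class was not tested.

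**Figure D1:**
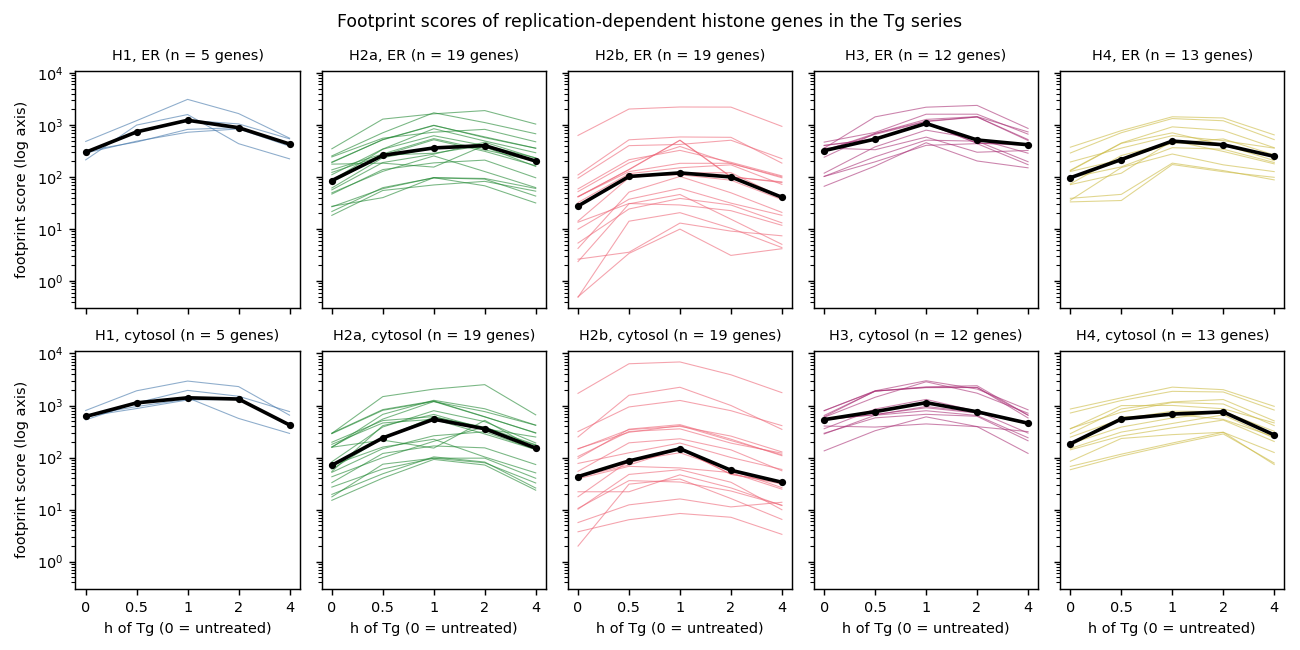
Footprint score of each of the 68 members with a value in every column (thin lines, log axis) at equally spaced times of Tg, with the ER in the upper and the cytosol in the lower row and one panel per class; the thick black line is the class median. The members move up together at 0.5 to 2 h and come back toward the untreated level at 4 h.

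In the ER fraction the histone genes rose as a group within 0.5 h of Tg and stayed higher at 4 h. Of the 68 members compared, 52 rose over 2-fold and none fell at 0.5 h, with a median difference of 1.48 on the log2 scale, against -0.22 over all 9323 genes, of which 4.66% were over 2-fold higher and 14.8% over 2-fold lower. At 1 h 66 rose and none fell, with a median of 2.24 against -0.09, where 5.3% of all genes were higher and 6.49% lower. At 2 h 64 rose and none fell, with a median of 1.88 against 0.05, where 6.88% of all genes were higher and 3.9% lower. By 4 h 31 rose and none fell, with a median of 0.95 against 0.16, where 5% of all genes were higher and 2.08% lower.

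The cytosol followed the same course and came back further. At 0.5 h 49 of 68 members rose and none fell, with a median of 1.26 against 0.23 over all genes, of which 17.5% were higher and 0.408% lower. At 1 h 62 rose and none fell, with a median of 1.74 against 0.12, where 14.9% of all genes were higher and 2.89% lower. At 2 h 51 rose and none fell, with a median of 1.45 against 0.15, where 11.5% of all genes were higher and 1.66% lower. At 4 h 12 rose and none fell, with a median of 0.17 against 0.03, where 5.22% of all genes were higher and 2.24% lower. In the ER 46 members had their highest score at 1 h, 21 at 2 h and 1 at 0.5 h; in the cytosol these numbers were 49, 17 and 2. No member had its highest score in untreated cells or at 4 h. At 4 h 23 of the 68 members were above untreated in the ER and below it in the cytosol, by any amount, and none the other way, against 21.4% and 9.61% of all 10126 genes with values in these columns.

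**Figure D2:**
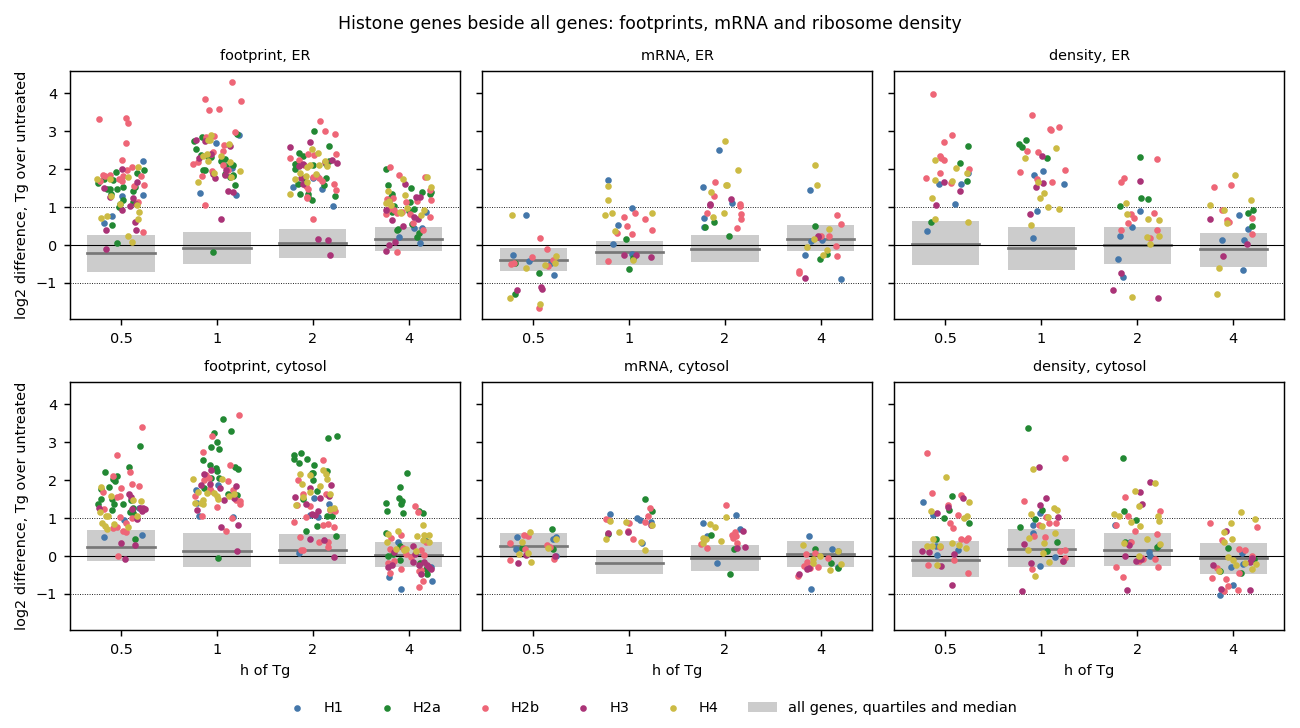
Log2 difference to untreated cells for each member (points) at 0.5, 1, 2 and 4 h of Tg, coloured by class, for footprints, mRNA and ribosome density in the ER (upper row) and the cytosol (lower row); grey boxes give the quartiles and median of all genes and dotted lines mark 2-fold. Footprint points lie mostly above the upper dotted line at 1 and 2 h, while most cytosol mRNA points lie between the lines.

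The median of the 5 H1 members compared was above untreated at 0.5, 1 and 2 h in both fractions and below it in the cytosol at 4 h. The H1 medians at 0.5, 1, 2 and 4 h were 1.30, 2.04, 1.54 and 0.44 in the ER and 0.94, 1.41, 1.09 and -0.54 in the cytosol. Hist1h1t, known as a testis H1, was blank in part and stayed out. Hist1h1d, the most abundant H1 gene, had ER footprint scores of 483 in untreated cells and 1212, 3103, 1657 and 558 at 0.5, 1, 2 and 4 h. In the cytosol Hist1h1d had 803 in untreated cells and 1919, 2951, 2309.9 and 651, so the 4 h score was below the untreated one there. Hist1h1b had 213 in the untreated ER and 996, 1587, 437 and 223 with Tg, with a peak at 1 h and a difference of 1.03 at 2 h. Its cytosol scores were 529 in untreated cells and 1128, 1407, 564 and 291 with Tg, and its 4 h difference of -0.86 was the lowest of the 68 members in the cytosol. Hist1h1c differed by less, with cytosol scores of 647 in untreated cells and 955, 1329, 1332 and 410 at the 4 times.

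In the cytosol H2a had the highest class median at 4 h. Their medians at 0.5, 1, 2 and 4 h were 1.47, 2.10, 2.02 and 1.02 in the ER and 1.5, 2.31, 2.18 and 1.13 in the cytosol. Of the 12 members that were still over 2-fold higher in the cytosol at 4 h, 10 were H2a genes. Hist1h2ab, the most abundant H2a gene, had cytosol scores of 291 in untreated cells and 1483, 2064, 2517 and 662 with Tg. Hist3h2a had 53.9 in the untreated cytosol and 411, 674, 358 and 248 with Tg, the largest rise of any member at 4 h there (log2 difference 2.18). Hist1h2ah, another Hist1 member, had 42.7 in the untreated cytosol and 99.7, 205, 389 and 152 with Tg, with its peak at 2 h. Although their untreated scores differed several-fold, Hist1h2ah and Hist1h2ab had cytosol differences of 3.16 and 3.11 at 2 h. Hist1h2aa was an exception in its class, with cytosol scores of 158 in untreated cells and 216, 152, 519 and 146 with Tg, so that it rose at 2 h alone; it is not among the most abundant members or those at the extremes and was picked after its values were seen. Hist2h2aa1 and Hist2h2aa2, with close scores, rose to 1196 and 1224 at 1 h in the cytosol, against 288 and 294 in untreated cells.

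H2b members rose early and came back early in the cytosol. Their medians at 0.5, 1, 2 and 4 h were 1.81, 2.49, 1.81 and 0.95 in the ER and 1.57, 1.75, 0.89 and 0.03 in the cytosol. Hist2h2bb had ER scores of 630.0 in untreated cells and 2025, 2216, 2205 and 941 with Tg. Its cytosol scores were 1712 in untreated cells and 6343, 6871, 3898 and 1767 with Tg, the highest of any member, and the 4 h score was close to the untreated one. Hist1h2bh had 249 in the untreated cytosol and 1572, 2242, 1002 and 348 with Tg, a rise of 3.17 on the log2 scale at 1 h. Hist1h2bk, by contrast, had ER scores of 5.38 in untreated cells and 24.3, 38.8, 29 and 13.2 with Tg, and cytosol scores of 22 in untreated cells and 22, 46.5, 26.1 and 12 with Tg. For Hist1h2bk the 0.5 h score was thus higher in the ER and not in the cytosol. Hist1h2bq and Hist1h2br, with close scores, reached 509.5 and 509 in the ER at 1 h, against 42.0 and 41.4 in untreated cells, and 148 and 144 in the cytosol, against 42.4 and 43.0 in untreated cells.

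The H4 medians were highest at 1 h in the ER and at 2 h in the cytosol. They were 1.06, 2.34, 2.05 and 1.10 at 0.5, 1, 2 and 4 h in the ER, and 1.05, 1.59, 1.84 and 0.42 in the cytosol. In the cytosol 7 of the 13 H4 members peaked at 2 h, against 10 of the other 55. Hist1h4m had cytosol scores of 857 in untreated cells and 1404, 2254, 2014 and 965 with Tg. Hist1h4d had 356 in the untreated cytosol and 996, 1004, 866 and 463 with Tg, a rise that was already full at 0.5 h. Hist1h4k had 58.4 in the untreated cytosol and 106, 177, 284 and 78.4 with Tg, with its peak at 2 h. All 3 came back toward the untreated score at 4 h without reaching it.

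H3 genes split by cluster. The 9 Hist1h3 genes had median ER differences of 1.24, 2.30, 2.15 and 0.93 at 0.5, 1, 2 and 4 h, whereas the 3 Hist2h3 genes, Hist2h3b, Hist2h3c1 and Hist2h3c2, had 0.40, 1.39, 0.13 and -0.00. In the cytosol the Hist1h3 medians were 1.27, 1.86, 1.54 and -0.16 and the Hist2h3 medians 0.30, 0.77, 0.43 and -0.23. The split was noticed in these values, and the Hist2h3 side holds 3 genes of which Hist2h3c1 and Hist2h3c2 had close scores. Hist1h3c had ER scores of 359 in untreated cells and 1433, 2197, 2379 and 859 with Tg, and cytosol scores of 796 in untreated cells and 1916, 2992, 2073 and 827 with Tg. Hist1h3i had 468 in the untreated ER and 719, 1609, 1611 and 667 with Tg. Both genes rose at 1 and at 2 h in both fractions. Hist2h3b had 361 in the untreated ER and 334, 585, 299 and 324 with Tg, and 403 in the untreated cytosol and 385, 442, 392 and 315 with Tg. Hist2h3c1 had 404 in the untreated ER and 534, 1060.0, 448 and 403 with Tg, so that it rose at 1 h alone. Untreated footprint scores of the Hist2h3 genes were within the range of the 9 Hist1h3 genes, which ran from 66.3 to 468 in the ER and from 134 to 797 in the cytosol.

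**Figure D3:**
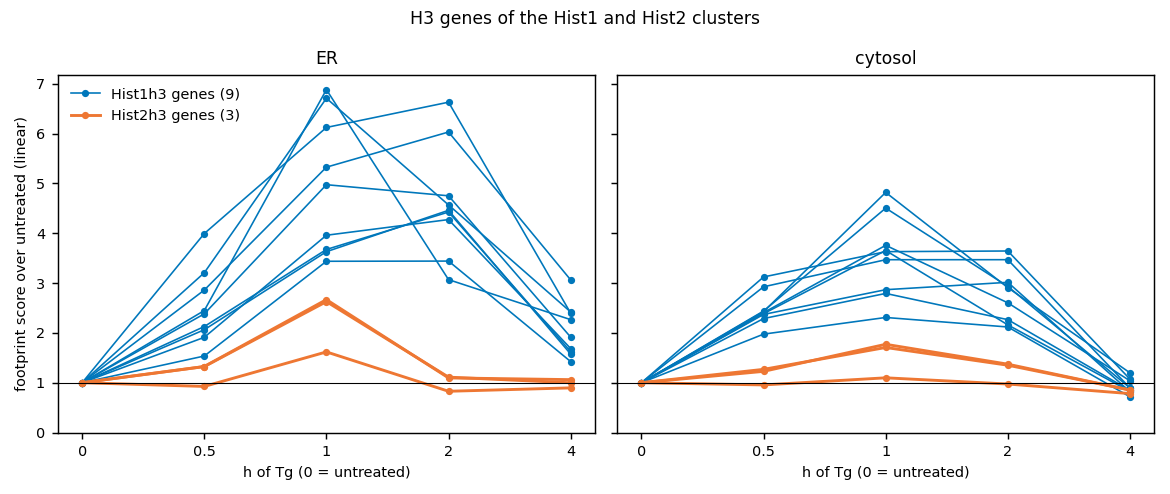
Footprint score over the untreated score (linear axis) of each of the 9 Hist1h3 genes (blue) and the 3 Hist2h3 genes (orange) at equally spaced times of Tg in the ER (left) and the cytosol (right). Most blue lines lie above the orange ones at 1 and 2 h; the lowest orange line is Hist2h3b, whose scores stay between 299 and 585 in the ER and between 315 and 442 in the cytosol.

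Histone mRNA changed less than the footprints, and in the ER later. The median mRNA difference was highest at 2 h in the ER, where that of the footprints was highest at 1 h. In the cytosol both medians were highest at 1 h. The sets were not matched, since the footprint medians cover 68 members. Values of mRNA at all Tg times in both fractions existed for 26 members, against 2389 of all genes. Of the others, 28 members had gaps and 15 were blank in every mRNA column. A member needed a score in every column, so low mRNAs are missing from these counts, and H2a, with 3 of its 19 genes, is hardly represented. These 3 were Hist2h2aa1 and Hist2h2aa2, whose footprint scores were close, and Hist1h2al. Matched by synonym, Hist1h2al has the RefSeq symbol H2af-ps2, which marks a pseudogene.

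In the ER fraction histone mRNA was lower at 0.5 h and higher at 2 h. At 0.5 h none of the 26 rose and 7 fell, with a median of -0.50 against -0.38 over all genes, of which 0.335% were higher and 11.3% lower; after subtracting the median of all genes 2 rose and 3 fell. At 1 h 3 rose and none fell, with a median of 0.38 against -0.19 (1.17% higher, 5.44% lower); with the median of all genes subtracted 7 rose. At 2 h 15 rose and none fell, with a median of 1.06 against -0.10, where 2.89% of all genes were higher and 3.47% lower. At 4 h 3 rose and none fell, with a median of 0.12 against 0.17 (6.7% higher, 1.72% lower); with the median of all genes subtracted 3 rose and 2 fell.

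Cytosol mRNA did not pass 2-fold for any of these 26 members at 0.5 h, with a median of 0.21 against 0.27 over all genes, of which 10.4% were higher and 0.293% lower. With values needed in the columns compared only, 2 of 45 members rose. At 1 h 5 of the 26 rose and none fell, with a median of 0.88 against -0.19, where 3.77% of all genes were higher and 3.68% lower; with the median of all genes subtracted 16 rose. At 2 h 3 rose and none fell, with a median of 0.50 against -0.06 (4.23% of all genes higher, 2.26% lower), and at 4 h none changed, with a median of -0.18 against 0.04 (5.02% higher, 2.26% lower). Among the 30 members with values in the columns compared at 0.5 h, 20 were below untreated in the ER and above it in the cytosol, by any amount, and 1 the other way, against 58.5% and 5.4% of all 2905 such genes.

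Single mRNAs show how different the course was from that of the footprints. Hist1h1c, the H1 gene with the highest mRNA score, had ER mRNA scores of 485 in untreated cells and 361, 701, 1051 and 532 with Tg, and cytosol mRNA scores of 816 in untreated cells and 1106, 1759.7, 1482 and 926 with Tg. Its mRNA peaked at 2 h in the ER and at 1 h in the cytosol. Hist1h4m had cytosol mRNA scores of 227 in untreated cells and 239, 424, 316 and 214 with Tg. Hist2h3b, whose footprints hardly moved, had cytosol mRNA scores of 187 in untreated cells and 189.6, 333, 296 and 133 with Tg. In the cytosol its mRNA was thus above the untreated level at 1 and 2 h, by less than 2-fold, while its cytosol footprint differences at those times were 0.13 and -0.04. Hist1h4h had the largest ER mRNA rise, with 41.1 in untreated cells and 71.6, 123, 282 and 181 with Tg; its cytosol mRNA scores were 159 in untreated cells and 144, 207, 203 and 195 with Tg. Hist1h1b had cytosol mRNA scores of 75.2 in untreated cells and 74.7, 96.3, 65.7 and 40.7 with Tg, and the 4 h difference of -0.87 was the lowest of the 26. Hist2h2bb, with the most footprints, had 115 in the untreated cytosol and 101, 130.1, 66.3 and 91.6 with Tg. It was blank in the untreated ER, so it entered none of the mRNA counts over the 26 members.

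Ribosome density, the deposited ratio of translation to mRNA, differed between members by orders of magnitude in untreated cells. In the cytosol it was highest for Hist2h2bb at 29.1 and lowest for Hist1h2bl at 0.0540, against a median of 2.44 over 48 members and 1.54 over all genes. Low values were found among H2b genes: Hist1h2bn had 0.155, Hist1h2bq 0.186, Hist1h2br 0.226 and Hist1h2bk 0.236. Hist1h2bn, for example, had an untreated cytosol mRNA score of 283 and a footprint score of 39.2. The sources used here do not say how reads that fit several genes were treated in either assay.

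Density was higher after Tg, most of all in the ER at 0.5 and 1 h. In the ER 26 of 30 members rose and none fell at 0.5 h, with a median of 1.75 against 0.03 over all genes, of which 14.2% were higher and 11.2% lower. At 1 h 26 of 31 rose and none fell, with a median of 1.92 against -0.09 (11.3% higher, 13.8% lower). At 2 h 9 of 31 rose and 3 fell, with a median of 0.66 against 0.00 (9.22% higher, 10.4% lower), and the 3 that fell were Hist2h3b, Hist2h3c1 and Hist1h4h. At 4 h 5 of 25 rose and 1 fell, with a median of 0.65 against -0.11 (4.92% higher, 11.3% lower). Density of Hist1h2bh in the ER was 1.06 in untreated cells and 16.7, 9.17, 3.63 and 3.19 with Tg. Hist1h1d had 3.23 in the untreated ER and 9.93, 11.6, 3.84 and 3.53 with Tg. Both had lower densities at 2 and 4 h than at 0.5 and 1 h, and Hist1h2bh was still over 2-fold above its untreated density at 2 and 4 h.

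In the cytosol fewer members changed in density. At 0.5 h 17 of 45 rose and none fell, with a median of 0.46 against -0.09 (9.66% of all genes higher, 10.1% lower). At 1 h 16 of 46 rose and none fell, with a median of 0.69 against 0.20 (14.9% higher, 5.99% lower), and at 2 h 14 of 45 rose and none fell, with a median of 0.44 against 0.15 (11.2% higher, 4.93% lower). At 4 h 1 of 41, Hist4h4, rose and 1, Hist1h1c, fell, with a median of -0.17 against -0.04 (4.99% higher, 6.83% lower); with the median of all genes subtracted 2 rose and none fell. Hist1h2bh had the largest cytosol rise at 0.5 h, with densities of 1.88 in untreated cells and 12.4, 11.4, 5.54 and 3.22 with Tg. Hist2h3b went the other way without passing 2-fold, with 2.47 in untreated cells and 2.05, 1.30, 1.32 and 2.36 with Tg. Hist1h1c stayed near its untreated density of 0.895, with 0.994, 0.750 and 0.896, until it reached 0.441 at 4 h. The deposited densities cannot be rebuilt exactly from the deposited scores: log2 of density over the score ratio had medians of 0.00 to 0.04 over all genes, but ranged from -1.81 to 0.97 among histone genes.

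Histone footprints lay more in the cytosol than in the ER columns in untreated cells, except those of 14 of the 19 H2a genes and 1 H2b gene. Over all 68 members the median log2 difference of ER over cytosol was -0.94, against -0.48 over all genes, of which 12.2% were higher by over 2-fold and 13.6% lower. No member was over 2-fold higher in the ER and 30 were lower; with the median of all genes subtracted 4 were higher and 11 lower. H2a stood apart with a class median of 0.27 and no member over 2-fold lower, whereas H2b had -1.45 with 14 members lower, H1 -1.03, H3 -1.0 and H4 -1.05. Expressed as the ER score in percent of both fractions, the median H2a gene had 54.9%, the median H2b gene 25.1%, H1 32.8%, H3 33.2% and H4 32.4%. Hist1h2ab, for example, had 349 in the ER and 291 in the cytosol, and Hist1h2bh 109.7 in the ER and 249 in the cytosol. The 5 H2a genes below 50% in the ER were Hist2h2aa1, Hist2h2aa2, Hist2h2ab, Hist2h2ac and Hist1h2al, with 39.7% to 41.2%. These shares take the authors' scale of the fractions as it stands.

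At 4 h of Tg the median ER share lay over 10 percentage points above the untreated one in every class but H2a. Its median over the 68 members was 33.9% in untreated cells, 37.3% at 0.5 h, 44.6% at 1 h, 42.6% at 2 h and 48.5% at 4 h. At 4 h H1 had 46.2%, H2b 42.7%, H3 49.0% and H4 43.6%, and H2a had 55.2%, close to its untreated 54.9%. The 5 H2a genes below 50% in untreated cells had 53.7% to 55.2% at 4 h, and 11 of the 19 H2a genes had a higher share at 4 h than in untreated cells. Over 2-fold, none of the 68 members was higher in the ER and 22 were lower at 0.5 h (0.955% and 38.3% of all genes), 2 against 6 at 1 h (8.43% and 24.4%), and 2 against 4 at 2 h (8.78% and 8.5%); with the median of all genes subtracted, 6 were higher and none lower at 0.5 h, and 2 and none at 2 h. The ER-over-cytosol median over histones at 4 h was -0.09, against -0.23 over all genes; 4 members were higher in the ER by over 2-fold and 1 lower at 4 h (11.3% and 4.97% of all genes), or 4 and none with the median of all genes subtracted. Histone mRNA had a median ER-over-cytosol difference of -0.91 in untreated cells, -1.75 at 0.5 h, -1.29 at 1 h, -0.21 at 2 h and -0.65 at 4 h, over the 26 members with mRNA scores. Over all 2389 genes the mRNA medians were 0.06 in untreated cells and -0.53, 0.14, 0.10 and 0.23 at the 4 times, so that they too were lowest at 0.5 h. The footprint median over the 68 members at 0.5 h was -0.74, a set that holds more H2a genes than the mRNA set.

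**Figure D4:**
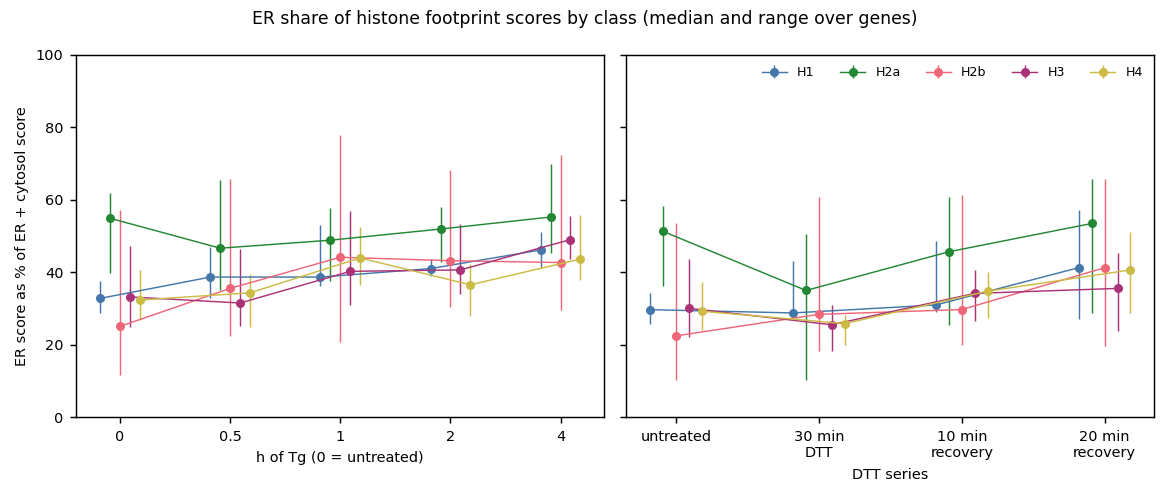
ER score in percent of the sum of the ER and cytosol footprint scores, as the median over the genes of each class (points, coloured by class) with bars from the lowest to the highest gene, in the Tg series (left) and the DTT series (right). In the Tg series the H2a medians stay between 46.6% and 55.2%, while the H2b median is 25.1% in untreated cells and 42.7% at 4 h.

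Histone footprints rose within 30 min of DTT and came part of the way back within 20 min of recovery, further in the cytosol than in the ER. Their summed ER score was 4.45 times untreated after DTT and 3.70 times after 20 min of recovery. In the cytosol these values were 5.49 and 2.42. On the scale of the DTT table, which the authors set apart from that of the Tg table, histone genes held 2.64% of the summed footprint score over both fractions in untreated cells, 12% after 30 min of DTT, 8.45% after 10 min of recovery and 7.17% after 20 min. In the ER 58 of 68 members rose and none fell after 30 min of DTT, with a median of 2.19 against -0.25 over 8315 genes, of which 8.07% were higher and 19% lower. In the cytosol 67 rose and none fell, with a median of 2.52 against 0.46, where 30.3% of all genes were higher and 1.41% lower; the exception was Hist2h3b with a difference of 0.88. Class medians in the ER were 1.99 for H1, 1.90 for H2a, 3.32 for H2b, 1.92 for H3 and 1.72 for H4, and in the cytosol 2.07, 2.78, 2.69, 2.15 and 2.09 in the same order of classes. The untreated columns of both tables are the same data up to a constant, so this is no second set of controls.

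The members at the extremes were largely those named for Tg. Hist1h2bh had cytosol footprint scores of 262 in untreated cells, 5643 after 30 min of DTT, 2113 after 10 min of recovery and 1165 after 20 min, the largest rise of any member (4.42 on the log2 scale). Hist2h2bb had 1807 in untreated cells, 10860.4 after DTT, and 4742 and 3125 in recovery. Hist1h3c had 841 in untreated cells, 7086 after DTT, and 3724 and 2638 in recovery. All 3 stayed above the untreated score after 20 min of recovery. The H3 clusters were apart again, with DTT medians in the ER of 2.04 for the Hist1h3 and 0.83 for the Hist2h3 genes, and in the cytosol of 2.20 and 1.48. Hist2h3b had cytosol scores of 425 in untreated cells, 785 after DTT, and 676 and 525 in recovery. Hist3h2a had 56.9 in the untreated cytosol, 1009.6 after DTT, and 568 and 373 in recovery, and Hist1h2ao had 63.1, then 978, 663 and 435.

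More members fell in the cytosol than in the ER during recovery. After 10 min of recovery, compared with 30 min of DTT, none of the 68 members rose and 4 fell in the ER, with a median of -0.15 against 0.17 over all genes, of which 10% were higher and 3.52% lower. In the cytosol 2 rose and 9 fell, with a median of -0.63 against -0.09 (1.19% higher, 9.99% lower). After 20 min none rose and 6 fell in the ER, with a median of -0.20 against 0.34 (17.4% higher, 3.58% lower), and none rose and 39 fell in the cytosol, with a median of -1.12 against -0.19 (1.21% higher, 17.4% lower). The 2 members that rose in the cytosol after 10 min were Hist1h2bq and Hist1h2br, with cytosol scores of 551 and 547 after 10 min of recovery, against 261 and 268 at 30 min of DTT. Compared with untreated cells, 61 of 68 members were still over 2-fold higher in the ER after 20 min of recovery (median 2.06 against 0.03, with 5.92% of all genes higher and 1.08% lower). In the cytosol 56 were higher (median 1.34 against 0.28, with 13.9% higher and 0.192% lower), and none was lower in either fraction.

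**Figure D5:**
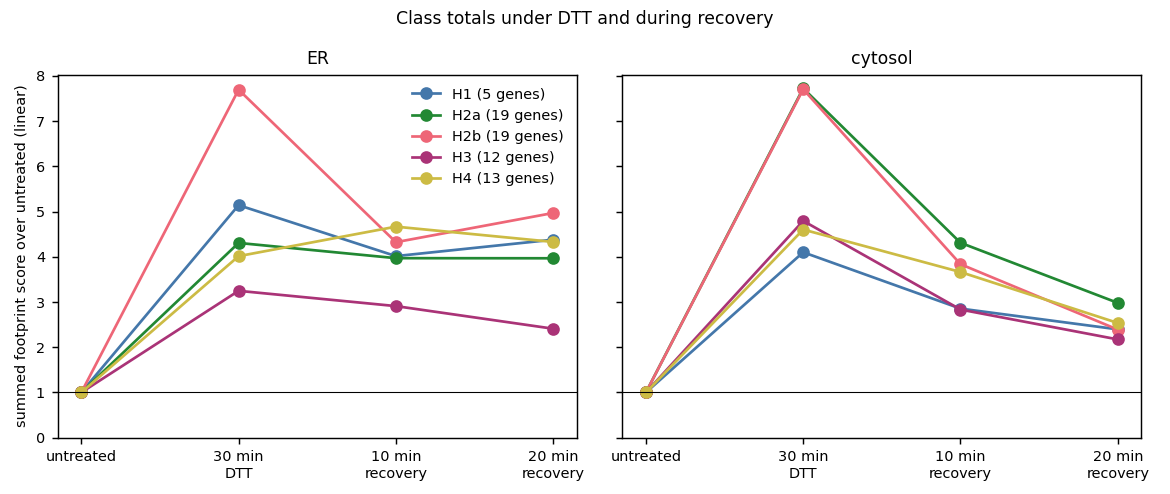
Summed footprint score of each class over its untreated sum (linear axis) in untreated cells, after 30 min of DTT and after 10 and 20 min of recovery, in the ER and the cytosol. In the cytosol H2a and H2b reach 7.73 and 7.71 times untreated and come back to 2.98 and 2.39, while in the ER H2b reaches 7.70 and the other classes stay between 2.41 and 5.14 after DTT and in recovery.

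Histone mRNA differed less than the footprints under DTT. Of the 18 members with mRNA scores in every column, which were 5 H1, 6 H2b, 2 H3 and 5 H4 genes, none changed over 2-fold after 30 min of DTT in either fraction. The median was -0.31 in the ER, against -0.47 over all genes (1.03% higher, 14.1% lower), and 0.43 in the cytosol, against 0.34 (14.7% higher, 1.5% lower). Hist1h1c had cytosol mRNA scores of 862 in untreated cells, 1322 after DTT, and 1378 and 1100.2 in recovery, and footprint scores of 683, then 2156, 1575 and 1120.4. After 20 min of recovery, compared with DTT, 3 of 18 rose in the ER (median 0.66 against 0.40, with 9.66% of all genes higher and 0.797% lower) and 4 fell in the cytosol (median -0.70 against 0.08, with 3.94% higher and 2.06% lower). Of the 22 members with values in these columns, 20 were higher in the ER and lower in the cytosol, by any amount, against 35.6% of all 2604 such genes.

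Density rose with DTT. After 30 min of DTT 22 of 24 members rose and none fell in the ER, with a median of 2.62 against -0.28 over all genes (10.2% higher, 20.9% lower), and 36 of 46 rose and none fell in the cytosol, with a median of 1.70 against -0.14 (15.4% higher, 14.9% lower). Hist1h2bh had cytosol densities of 1.88 in untreated cells, 34.8 after DTT, and 23.4 and 13.5 in recovery. Hist1h3c had 9.40 in untreated cells, 86.7 after DTT and 29.3 after 10 min of recovery. After 20 min, compared with untreated cells, 19 of 27 members were still higher in the ER (median 1.35 against -0.10, with 6.28% of all genes higher and 9.63% lower). In the cytosol 30 of 39 were higher (median 1.33 against -0.29, with 6.42% higher and 11.3% lower), and none was lower in either fraction.

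By the median over the 68 members, ER and cytosol footprints in the DTT series were furthest apart at 30 min of DTT. The ER-over-cytosol median over histones was -1.34, against -1.17 over all genes, of which 0.878% were higher and 58.7% lower; 48 of 68 members were over 2-fold lower in the ER and none higher, but with the median of all genes subtracted 4 were higher and 2 lower. After 10 min of recovery the median was -0.92 against -1.03, with none higher and 31 lower (7.36% and 52.2% of all genes), or 6 higher and none lower with the median of all genes subtracted. After 20 min of recovery the median was -0.48 against -0.81, with none higher and 12 lower (10.9% and 35% of all genes), or 16 higher and 1 lower with the median of all genes subtracted. The median ER share was 30.7% in untreated cells on the scale of the DTT table, 28.3% after DTT, and 34.6% and 41.8% in recovery.

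Genes with related roles were read from lists for comparison. Of 11 histone variants listed as replication-independent, most of whose mRNAs carry poly(A) tails, the median footprint difference at 1 h of Tg was 0.09 in the ER (2 rose, 1 fell) and -0.49 in the cytosol (1 rose, 1 fell). Of all genes 5.3% were over 2-fold higher and 6.49% lower in the ER, and 14.9% higher and 2.89% lower in the cytosol. H2afx, the H2A variant phosphorylated at DNA breaks, rose at both times, with cytosol footprint scores of 239 at 0.5 h and 325 at 1 h, against 99.8 in untreated cells, and 888 after 30 min of DTT, against 105 in untreated cells on that table's scale. H2afx is known to give both a stem-loop and a polyadenylated mRNA. H3f3a, which encodes the variant H3.3, had an ER score of 70.8 at 0.5 h of Tg, against 243 in untreated cells, and a cytosol score of 174 at 1 h, against 426 in untreated cells. After DTT the variants had medians of 0.27 in the ER (2 rose, 1 fell) and 0.43 in the cytosol (2 rose, none fell), the pair that rose in each being H2afx and H2afj. Of all genes 8.07% were higher and 19% lower in the ER then, and 30.3% higher and 1.41% lower in the cytosol.

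Counts for genes of histone mRNA handling, histone chaperoning and DNA replication are read against all genes, of which 5.3% were over 2-fold higher and 6.49% lower in ER footprints at 1 h of Tg, and 14.9% higher and 2.89% lower in the cytosol. Of 20 genes of histone mRNA processing and turnover, the median at 1 h of Tg was -0.13 in the ER (none rose, 2 fell) and -0.10 in the cytosol (1 rose, 1 fell); the gene that rose was Lsm10 (1.03), a subunit of the U7 particle that cuts histone pre-mRNA. Slbp, given for its role, had a cytosol footprint score of 194 at 1 h, against 206 in untreated cells. Of 15 histone chaperones none rose or fell at 1 h, with medians of -0.46 in the ER and -0.02 in the cytosol. Of 28 genes of DNA replication and S phase, the median at 1 h was -0.01 in the ER (1 rose, 2 fell) and 0.10 in the cytosol (none rose, 2 fell). Pcna, the replication clamp and also given for its role, had 644 in the cytosol at 1 h, against 628 in untreated cells. At 4 h 4 of these 28 genes fell in the cytosol, where 2.24% of all genes did, among them Tk1, the thymidine kinase (-1.55), and Ccna2, cyclin A (-1.18). After 30 min of DTT the S phase genes had medians of -0.45 in the ER (none rose, 5 fell) and 0.11 in the cytosol (1 rose, 1 fell), where 8.07% of all genes were higher and 19% lower in the ER and 30.3% higher and 1.41% lower in the cytosol. Ribosomal protein genes, a set of short and highly translated mRNAs, were lower under DTT: over 80 genes the median was -0.96 in the ER (none rose, 37 fell) and -0.32 in the cytosol (none rose, 3 fell), and at 1 h of Tg -0.26 (1 rose, 4 fell) and -0.06 (2 rose, 1 fell).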

How the data were processed

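Ribosome footprints and mRNA of the ER and cytosol fractions were measured in 52 samples (26 groups of 2 replicates). Ribosomes were pelleted after a nuclease digest and their footprints purified on a gel, and mRNA libraries by ribosomal RNA depletion and a directional kit, per the labels' protocols. The submitters' processing notes name Bowtie; the sources used here give neither its version nor the genome build. The tables, 2 in all, were deposited by the authors, for Tg and DTT, with 3 header lines and 22417 genes. They hold 1 value per gene, group and assay, with no separate replicates. For DTT the number of samples behind each value is not known. Translation and mRNA were deposited as a score whose scaling is not stated, and ribosome density was deposited as a ratio. A deposited mark of TRUE or FALSE (unit other) was FALSE for all 69 histone genes and was not used further. Scores of untreated cells in the DTT table are 0.913 (ER) and 1.06 (cytosol) times those in the Tg table.

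Differences are log2(score + 1), with a pseudocount of 1, over genes with no blank in the assay and table: 9323 (Tg footprints), 2389 (Tg mRNA), 8315 (DTT footprints) and 2133 (DTT mRNA). Density differences are log2 of deposited ratios over genes with a value in both columns compared. A gene was called at over 2-fold (log2 difference beyond 1 or -1). With 1 value per group no test was run and no depth or interval can be given. The calculation was run on simulated scores built without noise by the same formula, which checks the arithmetic only. Members were matched to RefSeq (GRCm38.p6) by accession (67) or synonym (2), and gene symbols are those of the deposited tables. Named members are the 3 most abundant per class and the 4 highest and 4 lowest at 0.5 h and 4 h of Tg and 30 min of DTT in the cytosol of each assay; exceptions are said in the text. The members and lists were chosen with earlier results of these data known. Python 3.11.15, pandas 2.3.3, numpy 2.4.6 and matplotlib 3.10.9 were used.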

Additional observations from a re-analysis of the deposited data

Results flagged for a closer look

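A pair of members differed over 2-fold in opposite directions in the ER and the cytosol under the same contrast, which is what brought them here. With 1 value per group the difference between the fractions was not tested. Hist1h2bg, an H2b gene, had an mRNA difference of 1.58 in the ER and -1.30 in the cytosol on the log2 scale after 20 min of recovery compared with 30 min of DTT. Its ER mRNA scores were 161 after 20 min of recovery, against 53.5 at 30 min of DTT, and its cytosol mRNA scores were 129 after 20 min of recovery, against 319.7 at 30 min of DTT. Hist1h4h, an H4 gene, had a density difference of -1.38 in the ER and 1.10 in the cytosol for 2 h of Tg compared with untreated cells. Its ER density was 1.53 at 2 h, against 3.99 in untreated cells, and the cytosol density was 5.17 at 2 h, against 2.41 in untreated cells.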

How the results depend on the processing

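The alternatives were a pseudocount of 0.1, genes with values in the columns compared only, blanks taken as 0, a strict filter on level, centring on the median of all genes, density as the ratio of the deposited scores, identical members counted once (none were identical) and, chosen after seeing the data, members of a class within 25% of one earlier by symbol in all Tg footprint columns counted once, which leaves out 8. No paired analysis was possible because the deposited columns do not give replicates apart, and for the same reason no replicate could be left out. For footprints of Tg or of 30 min of DTT over untreated cells, no histone median moved by more than the spread over members (interquartile range scaled to an SD) and no histone count by over 1.5 times under any of these. Centring moved 15 of 72 medians. Its values were 0.033, -0.17, 0.12 and 0.34 for footprints of ER over cytosol at 0.5 h of Tg, 30 min of DTT and 10 and 20 min of recovery; 0.16, -0.012 and 0.26 for ER mRNA at 30 min of DTT over untreated cells and at 10 and 20 min of recovery over DTT; 0.086 and -0.83 for cytosol mRNA at 30 min of DTT and 20 min of recovery over untreated cells; -1.20, -0.71 and 0.085 for mRNA of ER over cytosol at 30 min of DTT and 10 and 20 min of recovery; and 1.89, 0.28 and 1.39 for density of ER over cytosol at 1 and 2 h of Tg and 30 min of DTT. Centring subtracts the median of all genes by construction. It turned the footprint differences of ER over cytosol at 30 min of DTT to 0.013 for Hist2h3b, 0.10 for Hist1h2bm, 0.10 for Hist3h2a and 0.16 for Hist1h2al. Blanks taken as 0 gave medians of 0 for ER mRNA at 10 min of recovery over DTT and -2.37 for mRNA of ER over cytosol at 30 min of DTT. They also gave log2 class totals of 1.20 for H4 in ER mRNA at 1 h of Tg, -0.57 for H2b in ER mRNA at 30 min of DTT and 0.083 for H4 in cytosol mRNA at 10 min of recovery, each over untreated cells. Values in the columns compared only gave class totals of 0.24 for H2b in ER mRNA at 20 min and 0.083 for H4 in cytosol mRNA at 10 min of recovery. The ratio of scores turned density at 20 min of recovery over DTT in the ER to 0.55 for Hist2h3b and 0.14 for Hist1h2bk, that at 10 min over DTT in the cytosol to 0.39 for Hist1h3c, and that of ER over cytosol at 20 min of recovery to 0.50 for Hist1h2bk; the cause was not tested.

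Of 912 histone counts under alternatives 140 moved, either by over 1.5 times or from or to 0. The 144 counts with identical members counted once could not move, since none were identical. With blanks as 0, partly blank members enter (54 with Tg, 51 with DTT). Members with higher ER mRNA then numbered 6, 15, 33 and 9 at 0.5, 1, 2 and 4 h of Tg, against 0, 3, 15 and 3 as reported, and those with lower ER mRNA 1, 1 and 7 at 1, 2 and 4 h, against none. In cytosol mRNA 3, 16, 8 and 1 were higher, against 0, 5, 3 and 0, and 3, 2, 3 and 7 lower, against none. After DTT 3 were higher and 9 lower in ER mRNA and 6 higher and 2 lower in cytosol mRNA, against none, and after 20 min of recovery over DTT 16 were higher and 4 lower in the ER, against 3 and 0, and 17 lower in the cytosol, against 4. Values in the columns compared only gave 2, 11 and 6 higher in cytosol mRNA at 0.5, 1 and 2 h of Tg, against 0, 5 and 3, 1 and 4 higher in ER and cytosol mRNA after DTT, against none, and 8 lower in cytosol mRNA after 20 min of recovery over DTT, against 4. Centring gave 7 and 16 higher in ER and cytosol mRNA at 1 h of Tg, against 3 and 5, 2 higher in ER mRNA after DTT, against 0, and, after 20 min of recovery over DTT, 1 higher in ER mRNA, against 3, and 13 lower in ER footprints, against 6. In density it gave 8 higher in the ER at 4 h, against 5, 10 higher and 1 lower in the cytosol at 1 h, against 16 and 0, and 1 lower in the cytosol at 2 h, against 0. Members with close scores counted once left 4 lower in ER mRNA at 0.5 h, against 7, 3 higher in cytosol mRNA at 1 h, against 5, 3 higher in ER density at 4 h, against 5, 1 higher in cytosol footprints after 10 min of recovery over DTT, against 2, and 1 higher in footprints of ER over cytosol at 1 and at 2 h of Tg, against 2. The strict filter, which tests fewer genes, left 17 of 19 higher in ER density at 0.5 h, against 26 of 30, 3 at 4 h, against 5, and 11 after 20 min of recovery over untreated cells, against 19. It left none lower in footprints of ER over cytosol or in cytosol density at 4 h, against 1 each, and the ratio of scores also left none in that density. The depth behind the scores is unknown.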
